A study of Mus musculus with 8 samples.

Results

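The synaptotagmins described here are 10 genes, Syt1, Syt2, Syt4, Syt5, Syt7, Syt9, Syt11, Syt13, Syt16 and Syt17, chosen by name from the 43372 gene symbols of a count table on mouse dorsal root ganglion neurons. All 10 were found in the table. The RNA-seq study compared 2 populations of these sensory neurons, each with 4 libraries. Sst libraries came from Sst-IRES-Cre mice (genotype Ssttm2.1(cre)Zjh/J) and Trpv1 libraries from Trpv1-IRES-Cre mice (genotype Trpv1tm1(cre)Bbm/J), both on C57Bl/6. Pups of both genotypes received, into the peritoneum on postnatal day 2, an AAV9 virus that turns on eGFP or tdTomato in cells with Cre; which colour went to which library is not given in the labels. At 3 to 5 weeks of age, 150 to 250 fluorescent cells per mouse were picked by hand. Each population is therefore defined by Cre activity from the Sst or Trpv1 locus after the injection and by the eye of the picker, and each library is the mean of a pool. The labels call the samples independent and the cells were picked per mouse.

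Synaptotagmins are membrane proteins of vesicles and the plasma membrane, most of them with a pair of C2 domains. In several members these domains bind calcium and phospholipid, and the calcium-bound protein drives vesicle fusion through the SNARE complex. Syt1, Syt2 and Syt9 are the fast calcium sensors of transmitter release, and Syt7 is a slow sensor with high affinity. Syt4 and Syt11 have a serine in place of a calcium-binding aspartate of the first C2 domain and do not act as classical sensors. Sensory neurons release glutamate from synaptic vesicles and, in peptidergic classes, neuropeptides from dense-core vesicles. The names Syt5 and Syt9 have been used the other way round in part of the literature, so the coding length is given here to fix them: 386 codons for Syt5 and 491 for Syt9 in the transcripts used.

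The codon that separates the calcium-binding members from Syt11 is shown here because it sets Syt4 and Syt11 apart from the calcium sensors, and these paralogs differ in the comparison. Each stretch is 45 bases of coding sequence from a calcium-binding loop of the first C2 domain, 5′ to 3′ on the coding strand. Capitals mark the codon for the calcium-binding aspartate, GAT or GAC, or for the serine at that place, AGC. The stretches were read from GENCODE M21 transcripts on build GRCm38.
Syt1: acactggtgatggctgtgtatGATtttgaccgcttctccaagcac
Syt2: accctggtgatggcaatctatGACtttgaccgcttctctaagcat
Syt9: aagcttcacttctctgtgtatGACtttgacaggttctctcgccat
Syt5: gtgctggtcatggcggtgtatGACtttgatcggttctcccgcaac
Syt7: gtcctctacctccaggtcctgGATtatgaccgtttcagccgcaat
Syt11: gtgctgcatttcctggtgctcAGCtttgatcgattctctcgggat

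The Syt1 stretch lies in exon 9 of 12 (chr10:108627349-108627393, minus strand) and its capitals are codon 230. For Syt2 it lies in exon 7 of 10 (chr1:134744411-134744455, plus strand), and for Syt9 in exon 3 of 7 (chr7:107436681-107436725, plus strand). For Syt5 it lies in exon 5 of 8 (chr7:4542287-4542331, minus strand), for Syt7 in exon 10 of 13 (chr19:10442857-10442901, plus strand) and for Syt11 in exon 3 of 5 (chr3:88761822-88761866, minus strand), where the serine is codon 247. Syt1 and Syt2 were the closest pair of those printed, with 38 of 45 bases identical. The Syt9 stretch shared 28 of 45 bases with Syt1, and 35 with each of Syt3 and Syt6, which are outside the 10. Syt7 shared 20 with Syt1, and Syt11 shared 21. A search for the amino acid pattern at this loop found 1 match in each of these members and in Syt4, where the residue is also serine. It found 0 matches in Syt13, Syt16 and Syt17, which says only that the pattern is not there in these letters.

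The libraries held 9021125 to 12153109 counts (Sst) and 7419027 to 9568508 (Trpv1). Mitochondrial genes held 21.7% to 33.0% of the counts in Sst libraries and 25.4% to 40.2% in Trpv1 libraries, the most in Trpv1 replicate 3. Levels are given as CPM, a gene's counts per 1000000 counts of its library after TMM scaling, and differences are log2 fold changes of Sst over Trpv1 from edgeR's quasi-likelihood test, with p-values adjusted by Benjamini-Hochberg over 11828 tested genes and called under 0.05. The general sensory neuron list summed to 2588 to 2958 CPM in Sst libraries and 3257 to 3345 in Trpv1 libraries. Of its 8 genes 1 was called lower in Sst and 7 were not called, where 3.31% of all tested genes were called lower. The groups differ in sex: Xist, the female X-inactivation transcript, had 4240 to 6598 counts in every Sst library and 12659 and 7994 in Trpv1 replicates 3 and 4, but 0 in Trpv1 replicates 1 and 2, which held 825 and 860 counts of Y-linked genes. Pituitary transcripts, led by Prl and Gh, summed to 457 CPM in Sst replicate 2 and 1634 to 1750 in Trpv1 replicates 1 to 3, against at most 3.88 in the other four libraries.

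Of the 10 synaptotagmins, 8 passed the filter on low counts and were tested, 0 were called higher in Sst, 3 were called lower and 5 were not called. Syt13 and Syt17 did not pass. The genes called lower were Syt4, Syt7 and Syt16. Over all tested genes 6.35% were called, 3.04% higher and 3.31% lower in Sst. At an unadjusted p under 0.05, 1 of the 8 (Syt2) was higher and 3 were lower, and DESeq2 and limma voom also called 0 higher and 3 lower. The median log2 fold change of the 8 was −0.60, against 0.01 for all genes. The groups did not overlap for 3 of the 8, the same genes that were called, and for 11.1% of all genes tested. Syt16 passed the filter only through the Trpv1 libraries, so it had to differ, and its call and lack of overlap are given as a description. In pooled cells, fewer cells with a transcript and less of it per cell cannot be told apart.

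**Figure D1:**
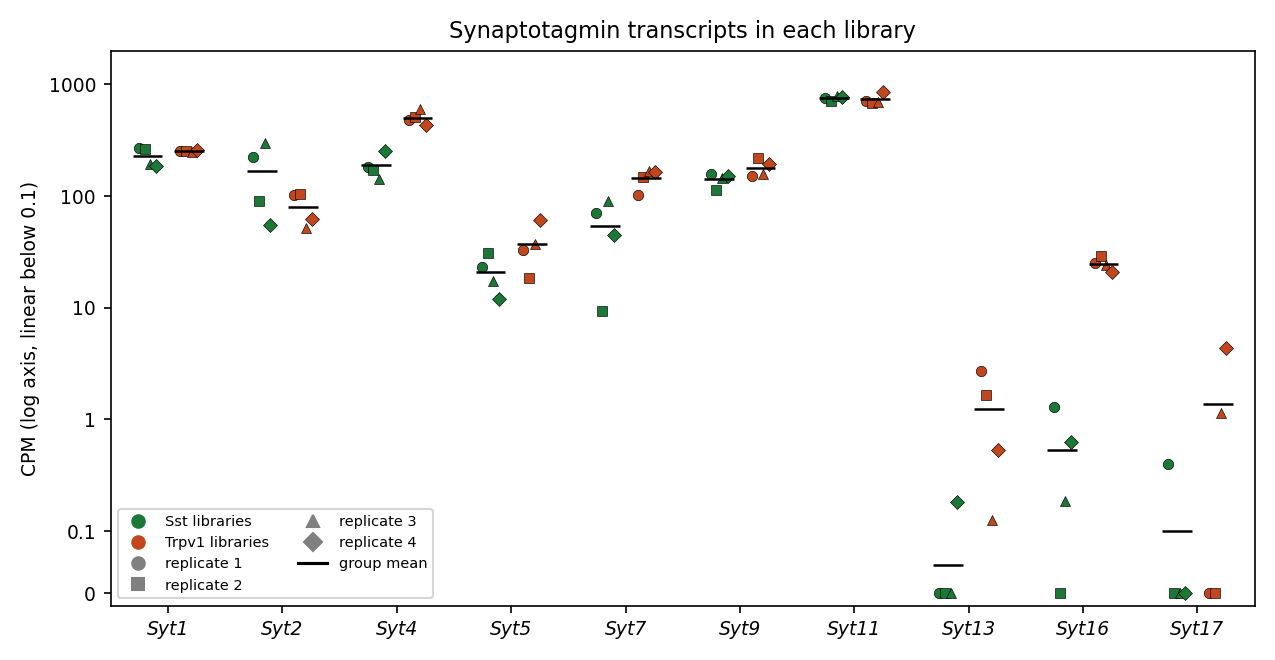
CPM of the 10 synaptotagmins in each library (symmetric log axis, linear below 0.1), green for Sst and orange for Trpv1, with 1 symbol per replicate and a bar at the group mean. The Trpv1 points lie above all Sst points for Syt4, Syt7 and Syt16, and the groups overlap for the others.

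Among the fast sensors, Syt1, the main calcium sensor of synchronous release in much of the forebrain, was 271, 266, 192 and 186 CPM in Sst replicates 1 to 4 and 253, 254, 249 and 260 CPM in Trpv1 replicates 1 to 4. The Trpv1 values lay close together, inside the wider Sst range. The log2 fold change was −0.15 (SE 0.21, adjusted p = 0.749 by edgeR), with a 95% interval of −0.59 to 0.28. Syt9, a sensor close to Syt1 in function and also found on dense-core vesicles, was 157, 114, 146 and 151 CPM in Sst and 152, 218, 157 and 192 in Trpv1. The groups overlapped by the lowest Trpv1 library alone, and the log2 fold change was −0.34 (SE 0.23, adjusted p = 0.441), with an interval of −0.82 to 0.14.

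Syt2, the fast sensor of hindbrain and spinal circuits, was uneven within Sst. It was 225, 89.6, 296 and 55.1 CPM in Sst and 102, 104, 51.3 and 62.4 in Trpv1. Sst replicates 1 and 3 stood above every Trpv1 library, while replicates 2 and 4 lay among them. The means were 167 ± 114 (SD, n = 4) and 79.9 ± 27.0 (SD, n = 4), and the log2 fold change was 1.06 (SE 0.41), with an adjusted p of 0.141 by edgeR. One library decides this: without Sst replicate 4 the log2 fold change was 1.35 and the adjusted p 0.0178, so that Syt2 was called higher there and in no other alternative. Markers of myelinated neurons were also higher in Sst. Their 12 genes summed to 10961, 11174, 14760 and 8545 CPM in Sst and 6582, 5715, 5948 and 5549 in Trpv1. Of the 12, 11 were called higher in Sst, against 3.04% of all tested genes. Markers at or near 0 in Trpv1 libraries, such as Runx3 and Slc17a7, passed the filter only through Sst, so they had to differ. Sst replicate 3 was highest and replicate 4 lowest for both Syt2 and the marker sum, although replicates 1 and 2 were nearly level in the sum and differed in Syt2. Nefm and Nefl made up most of the sum, at means of 4188 and 5077 CPM in Sst and 2167 and 3306 in Trpv1. Both were highest in Sst replicate 3, as were Nefh, Spp1, Runx3, Ldhb and Slc17a7. Scn1a and Pvalb were highest in Sst replicate 2, Ntrk3 and Kcna1 in replicate 1 and Cntnap2 in replicate 4. The part of myelinated neurons in the Syt2 values was not tested.

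**Figure D2:**
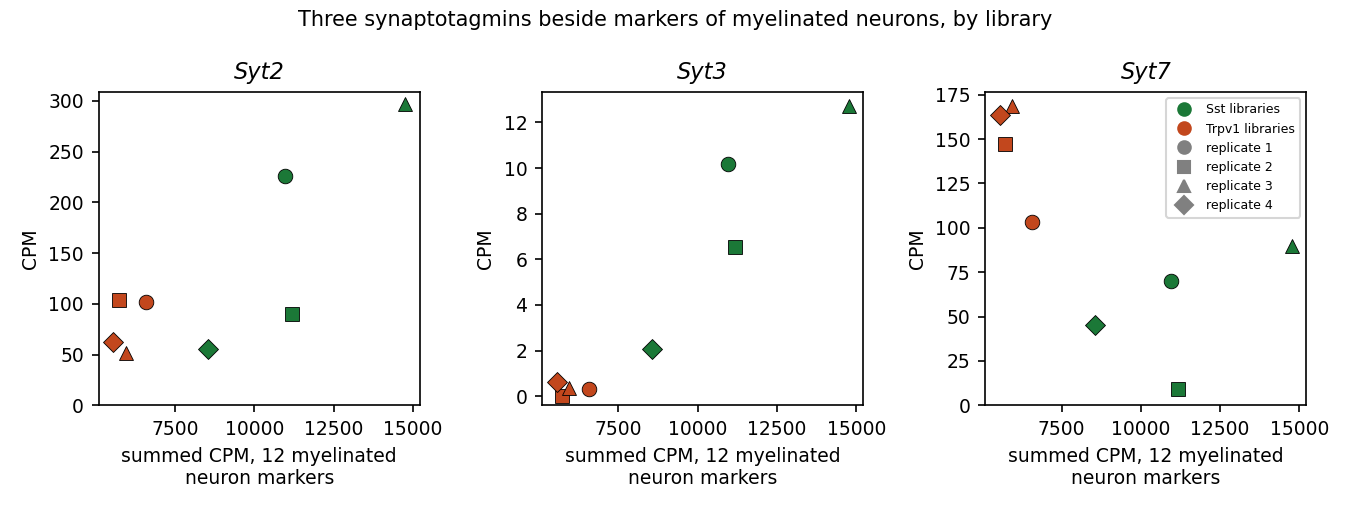
CPM of Syt2, Syt3 and Syt7 (vertical axes) against the summed CPM of 12 markers of myelinated neurons (horizontal axis), 1 point per library, green for Sst and orange for Trpv1. Nefm and Nefl make up most of the horizontal sum. Sst replicate 3 (triangle) is highest and Sst replicate 4 (diamond) lowest of the Sst libraries for Syt2 and Syt3, and all Sst points of Syt7 lie below the Trpv1 points.

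Syt7, a high-affinity sensor of asynchronous release, facilitation and dense-core or lysosomal exocytosis, was lower in Sst. It was 70.3, 9.37, 89.9 and 45.1 CPM in Sst and 103, 147, 169 and 163 CPM in Trpv1. Every Sst library was below every Trpv1 library, and Sst replicate 2 was far below the other Sst libraries. The means were 53.7 ± 34.8 (SD, n = 4) and 146 ± 29.7 (SD, n = 4), a 2.69-fold difference, with a log2 fold change of −1.43 (SE 0.38), an interval of −2.22 to −0.64 and an adjusted p of 0.0243 by edgeR. The call was close to the threshold and was made in 11 of 19 alternatives, with log2 fold changes below 0 in all 19. It was lost without any one of Sst replicate 2 (−1.07, adjusted p = 0.0505) or replicate 4 (0.0627) or Trpv1 replicate 2 (0.0610), 3 (0.0701) or 4 (0.0705), and with the original form of edgeR's quasi-likelihood method (−1.44, adjusted p = 0.1002). It was also lost over the 6 libraries with Xist (−1.59, adjusted p = 0.0961).

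Syt5, a synaptotagmin of synaptic and dense-core vesicles, was 23.4, 31.2, 17.3 and 11.9 CPM in Sst and 32.7, 18.5, 37.6 and 61.1 in Trpv1. The groups overlapped, with Trpv1 replicate 4 highest and Sst replicate 4 lowest. Its log2 fold change of −0.87 (SE 0.44, adjusted p = 0.271 by edgeR) had an interval of −1.78 to 0.04. The 4 fast sensors and vesicle forms that were not called thus had differences of either sign, with Syt2 alone above 0.

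The members with serine at the calcium-binding place split. Syt4, a protein of dense-core vesicles and the Golgi region that restrains or retunes release of peptides and neurotrophins, was 182, 173, 143 and 254 CPM in Sst and 475, 511, 596 and 430 CPM in Trpv1. Every Trpv1 library was above the highest Sst library. The means were 188 ± 46.9 (SD, n = 4) and 503 ± 70.6 (SD, n = 4), a 2.67-fold difference, with a log2 fold change of −1.42 (SE 0.21), an interval of −1.86 to −0.98 and an adjusted p of 0.000106 by edgeR. Leaving out each library in turn gave −1.60 to −1.29, all called. Syt4 lies on chromosome 18 (GRCm38, 31437808 to 31447406, minus strand). A noncoding gene on the opposite strand, Gm26658, overlaps its exons and had 9 counts in all Sst and 10 in all Trpv1 libraries, against 7755 and 17337 for Syt4. The strand setting is not given, so these counts cannot show which gene the reads in the overlap came from.

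Syt11, the paralog of Syt4 and a brake on endocytosis and vesicle fusion, was the most abundant member and did not follow it. It was 751, 712, 793 and 774 CPM in Sst and 710, 688, 697 and 846 in Trpv1. The groups overlapped, with the highest and the lowest library both from Trpv1. The log2 fold change was 0.04 (SE 0.16, adjusted p = 0.920 by edgeR), and its 95% interval of −0.30 to 0.38 excludes a difference of the size fitted for Syt4. The sign flipped under 3 alternatives, none of them called. As a ratio within a library per exonic length, Syt4 to Syt11 was 0.324, 0.324, 0.242 and 0.439 in Sst and 0.895, 0.994, 1.14 and 0.679 in Trpv1, so that the lowest Trpv1 ratio lay above the highest Sst ratio. This pair was set side by side with its values known, and the ratio carries no test.

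**Figure D3:**
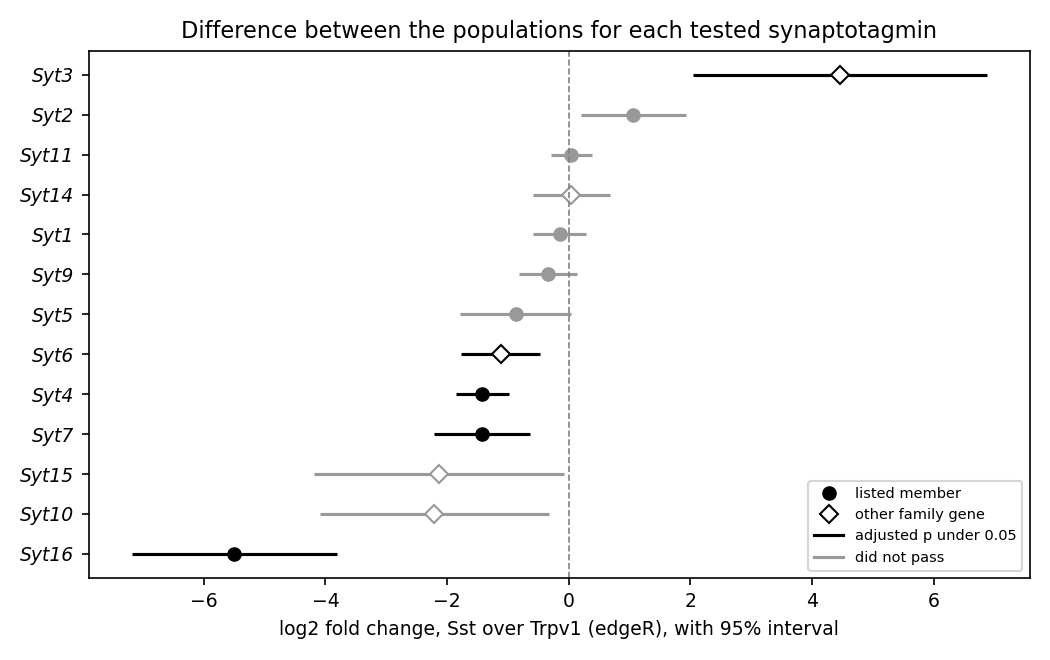
Log2 fold change of Sst over Trpv1 with its 95% interval (horizontal axis) for the tested synaptotagmins, circles for the 8 listed and open diamonds for 5 other family genes, in black where the adjusted p was under 0.05 and in grey where it was not. Syt16, Syt7, Syt4 and Syt6 are black on the left of 0 and Syt3 is black on the right.

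Syt16 had the widest gap. It lacks the transmembrane segment and calcium-binding residues of classical synaptotagmins, and its function is little known. The gene lies on chromosome 12 (GRCm38, 73997661 to 74273267, plus strand). Its raw counts were 13, 0, 2 and 7 in Sst and 244, 228, 189 and 199 in Trpv1, or 1.29, 0, 0.185 and 0.635 CPM against 25.2, 29.2, 24.0 and 21.1 CPM. All Trpv1 libraries were close together and Sst replicate 2 had no read, for which a count of 0 allows up to 3. The fitted log2 fold change was −5.50 (SE 0.82), a 45.2-fold difference, with an interval of −7.18 to −3.81 and an adjusted p of 5.60e-05 by edgeR. As the gene passed the filter only through Trpv1, it had to differ, and these values are given as a description. The size rests on few reads: 13 of the 22 Sst counts came from replicate 1, without which the fitted value was −6.35, still called. The ratio of the summed counts was 46.1, with a 95% counting interval of 30.3 to 74.0 that covers counting error alone. Gm29587, on the opposite strand, had 0 counts in both groups, which cannot show where reads in the overlap came from.

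**Figure D4:**
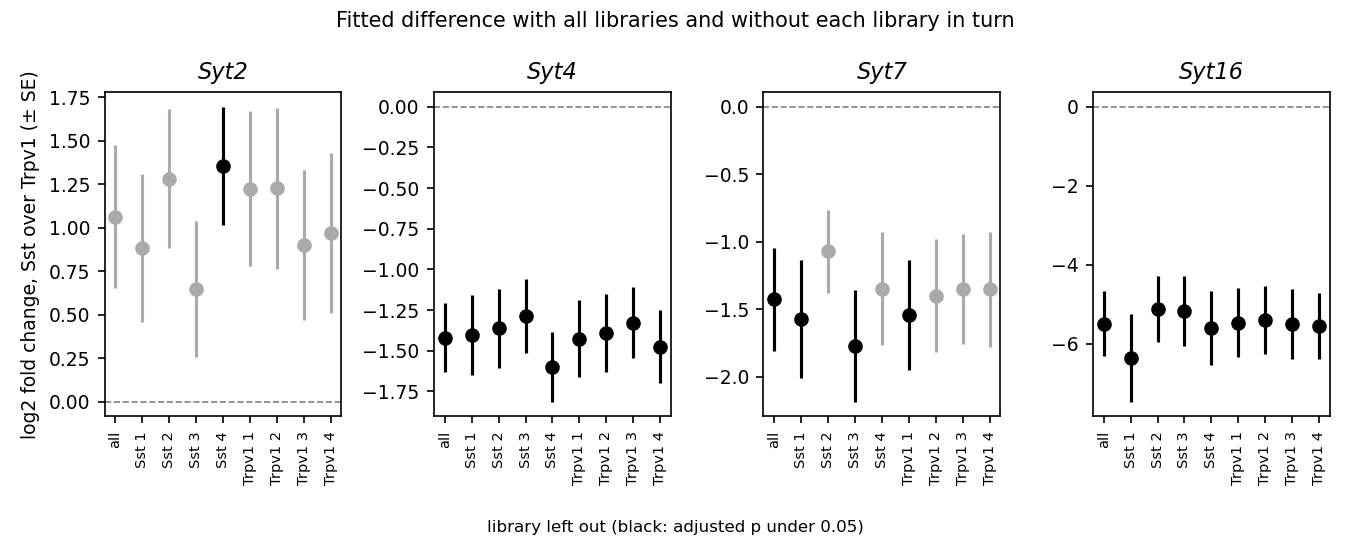
Log2 fold change of Sst over Trpv1 with its SE (vertical axis) for Syt2, Syt4, Syt7 and Syt16, with all libraries and without each in turn, black where the adjusted p was under 0.05. Syt4 and Syt16 are black throughout, Syt7 turns grey without 5 of the 8 libraries and Syt2 turns black without Sst replicate 4 alone.

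Syt13 and Syt17, atypical members that do not bind calcium through their C2 domains, were scarce in both populations. They lie on chromosome 2 (92915098 to 92956058, plus strand) and chromosome 7 (118380717 to 118448222, minus strand) of GRCm38. Syt13 had 0, 0, 0 and 2 counts in Sst and 26, 13, 1 and 5 in Trpv1. The ratio of summed counts was 26.5 in favour of Trpv1, with a counting interval of 6.93 to 226, and the exact two-sided permutation test of CPM gave p = 0.0571, where the smallest p for 4 against 4 is 0.0286. Syt17 had 4, 0, 0 and 0 counts in Sst and 0, 0, 9 and 41 in Trpv1, so that 1 library held 41 of the 50 Trpv1 reads. Its ratio of 14.7 had a counting interval of 5.41 to 56.2, and the exact permutation p was 0.429. With no filter on low counts, edgeR gave adjusted p = 0.437 for Syt13 and 0.476 for Syt17.

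Levels can be set against each other only per exonic length, here CPM per kilobase of the union of annotated exons. Syt11 was first in both groups, at 137 to 152 in Sst and 132 to 163 in Trpv1. Syt4 was the second, at 36.8 to 65.2 in Sst and 110 to 153 in Trpv1; it overlapped Syt11 in Trpv1 and lay below it in Sst. Syt9 (28.7 to 39.4 in Sst, 38.2 to 54.8 in Trpv1) and Syt1 (22.3 to 32.5 in Sst, 29.9 to 31.2 in Trpv1) followed, overlapping each other in Sst and not in Trpv1. Below them the order depended on the population: Syt2 was the fifth in Sst (7.22 to 38.8) and the seventh in Trpv1 (6.71 to 13.6), while Syt7 was the seventh in Sst (1.25 to 12.0) and the fifth in Trpv1 (13.8 to 22.5). Syt5 lay between them and overlapped both in both groups. Syt16, Syt13 and Syt17 were at most 3.19 in any library.

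As a share of the summed level of the 10 genes per length, Syt11 made up 49.4% ± 2.21 (SD, n = 4) in Sst and 35.7% ± 2.99 in Trpv1. Syt4 made up 16.5% ± 4.32 in Sst and 32.7% ± 4.54 in Trpv1. The shares are tied to each other: Syt11's own CPM did not differ beyond its spread, and the sum per length was 268 to 312 in Sst and 371 to 411 in Trpv1. Syt2 took 7.24% ± 4.66 in Sst and 2.67% ± 0.993 in Trpv1, and Syt7 took 2.36% ± 1.47 and 4.90% ± 0.822. These shares are a description of the same counts and carry no test.

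**Figure D5:**
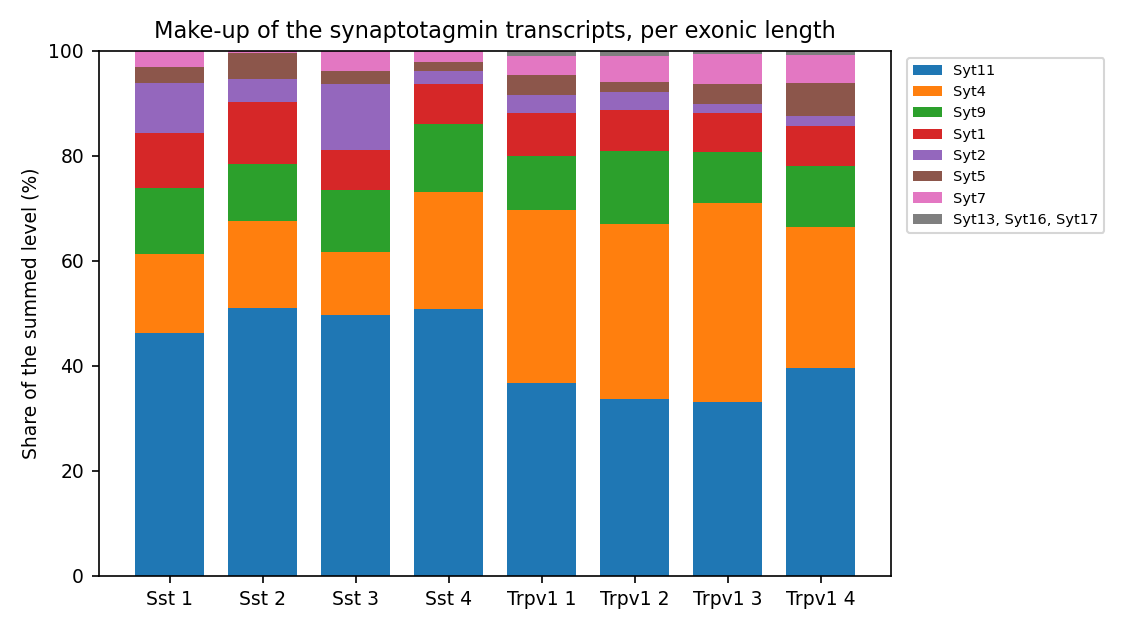
Share of the summed CPM per exonic kilobase held by each synaptotagmin (vertical axis, percent) in each of the 8 libraries (bars); Syt13, Syt16 and Syt17 are joined. Syt11 is the largest block in every Sst library, and Syt4 is larger in every Trpv1 library than in any Sst library.

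Of the 7 family genes outside the 10, 5 were tested, 1 was called higher in Sst and 1 lower. Over all tested genes these shares were 3.04% and 3.31%. Syt3, a high-affinity sensor with a role in receptor endocytosis, was 10.2, 6.54, 12.7 and 2.09 CPM in Sst and 0.310, 0, 0.381 and 0.637 in Trpv1. The groups did not overlap, and the Sst libraries stood in the same order as for Syt2. Its log2 fold change was 4.46 (SE 1.17, adjusted p = 0.0217 by edgeR), on 12 counts in all Trpv1 libraries, and it was called in 8 of 18 alternatives. Syt3 passed the filter on low counts only through the Sst libraries, so it had to differ, and its call and lack of overlap are given as a description. Syt6, a relative of Syt3 known from the acrosome reaction of sperm, was 75.8, 37.5, 54.5 and 44.8 CPM in Sst and 88.4, 156, 147 and 73.6 in Trpv1, with a log2 fold change of −1.12 (SE 0.32, adjusted p = 0.0329). Sst replicate 1 lay above Trpv1 replicate 4, and the call was made in 8 of 19 alternatives. Syt10, Syt14 and Syt15 were not called, Syt12 had too few counts to test, and Syt8 had 0 counts in all libraries.

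Markers of other neuron classes also differed between the groups, the peptidergic ones in the direction of Syt4, Syt7 and Syt16 and most NP3 ones in the other. The 8 peptidergic nociceptor markers, which include Calca and Tac1, summed to 43.0 to 125 CPM in Sst and 2034 to 2778 in Trpv1. Of these, 8 of 8 were called lower in Sst. For comparison, 3.31% of all tested genes were called lower and 3.04% higher. Peptidergic markers at or near 0 in Sst libraries, such as Gal, Cartpt and Chrnb4, passed the filter only through Trpv1, so they had to differ. The NP3 class, the itch neurons that carry Nppb and Sst, summed to 4600 to 7698 CPM in Sst and 2561 to 2731 in Trpv1, with 4 of 9 called higher. The genes Nppb (adjusted p = 0.129 by edgeR) and Sst (0.0753) were not called, and Nts had a log2 fold change of −0.17. Jak1 was the largest part of the sum, at a mean of 2933 CPM in Sst and 1309 in Trpv1. Schwann cell and satellite glia markers summed to 571 to 892 in Sst and 708 to 1032 in Trpv1, with 0 of 10 called. Endothelial, mural, immune and fibroblast markers summed to 428 to 822 CPM in Sst and 285 to 375 in Trpv1, without overlap. Of these 9 genes 4 were tested and 1 was called. Rgs5, listed as a mural cell marker, was 390 to 761 CPM in Sst and 145 to 327 in Trpv1 (log2 fold change 1.35, adjusted p = 0.00137 by edgeR), and it made up most of the sum. Acta2 and Cldn5, of the same list, were at most 0.531 and 0.834 CPM in any library. The microglia and macrophage marker C1qa was at 0 in all libraries. The parts of peptidergic neurons and of these other cells in the Syt4, Syt7 and Syt16 values were not tested. The part of pituitary cells in these values was not tested either. Pituitary transcripts were at 0 in Trpv1 replicate 4, where Syt4, Syt7 and Syt16 were 430, 163 and 21.1 CPM, each above every Sst library. A fit over the 4 libraries with at most 1 Gh or Prl count, which sets this library alone against 3 from Sst, kept the direction of all 3 genes and called none of them: the log2 fold changes were −1.11 for Syt4 (adjusted p = 0.313 by edgeR), −1.22 for Syt7 (0.357) and −4.87 for Syt16 (0.0708).

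By Pearson correlation of log2 CPM over the 8 libraries, the genes with a pattern most like Syt16 among 7702 candidates were Fxyd6 (0.985), Ptgdr (0.981), Ccdc6 (0.981), Trpa1 (0.976) and Kalrn (0.973). The 8 libraries form 2 groups, so these values mainly describe the gap between them. Fxyd6 was 0 to 2.39 CPM in Sst and 24.6 to 72.0 in Trpv1. Like Syt16, Fxyd6 passed the filter only through Trpv1, so it had to differ, and its values are a description. Trpa1, the irritant-gated channel, was 6.39 to 21.9 CPM in Sst and 144 to 240 in Trpv1. Ccdc6 was not called (adjusted p = 0.0615 by edgeR).

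The proteins that synaptotagmins act on were mixed. Of 11 genes of the fusion machinery and its clamps, 4 were called higher in Sst and 1 lower, with a median log2 fold change of 0.42. Over all tested genes 3.04% were called higher and 3.31% lower, and the median was 0.01. Cplx1, a complexin that clamps the SNARE complex, was 326 to 634 CPM in Sst and 94.3 to 137 in Trpv1 (log2 fold change 1.93). Snap25, a plasma membrane SNARE, was 3648 to 4466 and 1709 to 2290 CPM (1.02), and Vamp1, a vesicle SNARE, was 98.5 to 294 and 24.8 to 86.0 CPM (1.98). The gene called lower, Cplx2 (−1.26, adjusted p = 0.0278 by edgeR), is named after its values were seen. Its groups overlapped, and the count of 1 lower fell to 0 in 12 of 19 alternatives, among them the replicate block, limma voom, the Xist term, the original quasi-likelihood method and the loss of any one Sst library. The count of 4 higher was 3 over the libraries with Xist and 0 over the 4 libraries with at most 1 Gh or Prl count. Of 15 partners and vesicle proteins, Sv2b, a vesicle glycoprotein that binds synaptotagmin, was higher (1.41), Rab27b, a GTPase of secretory granules, was lower (−3.40) and 13 were not called.

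Among 28 other C2-domain proteins of exocytosis, 20 were tested, 3 were called higher and 2 lower, and the median was 0.00. All tested genes had 3.04% called higher, 3.31% lower and a median of 0.01. With a term for Xist, and over the libraries with Xist alone, 1 was called higher; over the 4 libraries with at most 1 Gh or Prl count, 0 were called in either direction. Cadps2, which primes dense-core vesicles, was 163, 142, 183 and 43.2 CPM in Sst and 9.83, 24.3, 24.5 and 3.61 in Trpv1 (log2 fold change 3.14, adjusted p = 9.58e-05 by edgeR). Rph3a, a Rab3 effector, was 194 to 320 CPM in Sst and 63.0 to 161 in Trpv1 (1.37). It was not called with the Xist term (1.005, adjusted p = 0.0918 by edgeR) or over the libraries with Xist (1.03, adjusted p = 0.127). The synaptotagmin-like Rab27 effector Sytl3 was lower, at 0.0907 to 4.38 CPM in Sst and 16.7 to 19.7 in Trpv1 (−3.40). Sytl3 passed the filter only through Trpv1, so it had to differ, and its call is a description. Esyt3, an extended synaptotagmin that tethers the endoplasmic reticulum to the plasma membrane, was 0.199, 0, 0 and 0 CPM in Sst and 7.24, 5.24, 11.7 and 37.4 in Trpv1, so that it passed the filter only through Trpv1, and its fitted value depends on the prior count and gives no size. The gene called higher besides these, Sytl2 (1.79, adjusted p = 0.0219), is named after its values were seen.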

How the data were processed

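Each library is a pool of picked neurons whose RNA was extracted with a PicoPure kit, amplified with the Ovation system and made into a library with Nextera XT, per the labels' protocols. Pools this small add spread to scarce transcripts. Raw counts, as whole reads per gene symbol, were deposited by the authors in a single table; 0 of its columns were left unused. Per the submitters' processing notes, bcl2fastq 2.17, Trimmomatic 0.33 and featureCounts were used on GRCm38. For the aligner, annotation and strand setting, the sources used here give nothing. Reads of a gene and of its antisense partner cannot be told apart.

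The deposited counts were scaled by TMM (trimmed mean of M-values), filtered with edgeR's expression filter (minimum count 10) and tested with the robust quasi-likelihood F test of edgeR 4.0.16 in R 4.3.3, two-sided, with group as the only term. This version offers an original and a bias-adjusted form of that method. The plan did not name one; the bias-adjusted form was chosen after the calls of both had been seen, because earlier processing of these data had used it. The original form is an alternative added after seeing the data, and Syt7's call depends on the choice. Alternatives used DESeq2 1.42.0, limma 3.58.1, other filters and scaling, a replicate block, Xist, and libraries left out. Exonic lengths are from GENCODE M21. Members, lists, tests and alternatives were chosen with earlier results of these data known. Besides the 10 members and the rest of the family, genes are named by rule, up to 4 called genes of smallest p in each related list and the 5 genes most like Syt16. One gene that this rule names is not reported here. The script was tested on simulated data.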

Additional observations from a re-analysis of the deposited data

Results flagged for a closer look

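In a group of 4 libraries, a library is listed here when its gap to the nearest other as a share of the group's range exceeds Dixon's 95% critical value. Chance flags about 1 in 20 groups of continuous values, and 6 of the 62 groups of values examined were flagged. A group with reads in 1 library alone is always flagged, as were Syt13, Syt17 and Esyt3 in Sst and Syt12 in Trpv1. These rates can therefore not be compared. Syt11 stood at 846 CPM in Trpv1 replicate 4, above 688 to 710 in the other three. The other five were scarce transcripts in which 1 library held most reads: Syt13 at 0.181 CPM in Sst replicate 4, Syt17 at 0.398 in Sst replicate 1, Syt12 at 3.07 in Trpv1 replicate 2, Syt15 at 6.87 in Sst replicate 2 and Esyt3 at 0.199 in Sst replicate 1.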

How the results depend on the processing

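Across 19 alternatives Syt4 and Syt16 were called lower in 18, Syt7 in 11 and Syt2 higher in 1. Syt16 passed the main filter only through Trpv1, so its calls are a description. The 4 libraries with at most 1 Gh or Prl count (3 Sst, 1 Trpv1), an alternative added after seeing the data, left 52 genes called and 0 synaptotagmins lower: Syt4 was −1.11 (adjusted p = 0.313), Syt7 −1.22 (0.357) and Syt16 −4.87 (0.0708), and its lone Trpv1 library is assumed to vary like the others. The number of genes called, 751 in the report, was 435 with a term for Xist, 305 in the 6 libraries with Xist, 493 with the original quasi-likelihood method and 452 to 747 when each library was left out. In those last fits 0 to 1 synaptotagmins were higher and 2 to 3 lower. Signs reversed, without a call, for Syt11 (−0.027 with the Xist term, −0.0015 in the libraries with Xist, −0.091 in the 4 libraries), for Syt10 (0.93 in the 4 libraries) and for Syt14 (−0.19, −0.16 and −0.16 in the same 3, and −0.078 to 0.20 when each library was left out); the cause was not tested.

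The replicate numbers do not show pairing: deviations of same-numbered libraries correlated at −0.0296 to 0.0316. With a replicate block 572 genes were called, with the same 0 synaptotagmins higher and 3 lower, and Syt6 was not called (−1.10, adjusted p = 0.0793). The filter at 5 CPM in 4 libraries removed Syt3 and Syt10, which have no value there. Only 4 libraries a group and few counts limit what Syt13, Syt17 and the Sst level of Syt16 can show.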
